A study of Mus musculus with 13 samples.

Results

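The response of gamma delta intraepithelial lymphocytes to interferon alpha (IFNa) was measured in mice whose gamma delta T cell receptor (TCR) had been bound by the antibody UC7-13D5. It was read from 3 UC7-IFNa and 3 UC7-PBS libraries, 6 of the 13 bulk RNA sequencing libraries in the series, over autosomal genes, which were 20370 of the 21084 genes listed. Both groups came from wild-type mice, and both carried the antibody: 200 µg of UC7-13D5 given intraperitoneally, a hamster antibody that binds the gamma delta TCR. The labels place it 48 and 24 hours before isolation, while the design text reads as either time, so the number of doses per mouse is unclear. UC7-IFNa mice then received 1 µg of murine IFNa intravenously, and UC7-PBS mice phosphate buffered saline (PBS), 5 hours before the cells were sorted from the small intestine. The other 7 libraries, 4 IgG-IFNa and 3 IgG-PBS, came from mice given Armenian hamster IgG in place of UC7-13D5. They serve here only in the filter on low counts, the scaling between libraries and the estimate of spread, and for 1 comparison. The age of the mice, and whether a library held the cells of 1 mouse or of several, were not given in the sources used here. Labels call the libraries biological replicates, and p-values measure the spread between these libraries.

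Gamma delta intraepithelial lymphocytes are T cells that sit between the epithelial cells of the gut, where they carry granzymes and respond to injury and infection. Type I interferons bind the receptor IFNAR1/IFNAR2, whose Janus kinases phosphorylate STAT proteins. With IRF9 these form ISGF3, a factor that binds the interferon-stimulated response element (ISRE) in the promoters of antiviral genes. The products of those genes bind, sense, degrade or trap viral nucleic acids and particles, and some of them, such as USP18, damp the signal.

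The libraries carried the transcripts of the sorted cells. Trdc, the delta constant region, stood at 184, 204 and 185 CPM in UC7-IFNa libraries 1 to 3, against 211, 204 and 199 CPM in UC7-PBS libraries 1 to 3. CPM express a gene's count per library total, scaled between libraries by the trimmed mean of M values (TMM). They are not scaled by transcript length, so levels are compared between libraries and not between genes. Library totals ran from 19867201 to 25499253 estimated counts, the lowest in UC7-IFNa library 2, and in such bulk samples fewer cells of a type and less RNA per cell cannot be told apart. UC7-IFNa library 2 stood apart. The 18S ribosomal transcript Rn18s took 1.14% of its counts, against 0.0866% and 0.0993% in UC7-IFNa libraries 1 and 3. In UC7-PBS libraries 1 to 3 it took 0.234%, 0.271% and 0.162%, so UC7-IFNa libraries 1 and 3 lay below every UC7-PBS library. The part of this difference in the calls without library 2 was not tested. The correlation of log2 levels of library 2 with UC7-IFNa libraries 1 and 3 was 0.956 and 0.960, where those libraries correlated at 0.992 with each other. Fold changes and counts of calls below are therefore given with and without it. Mitochondrially encoded transcripts took 0.611%, 1.23% and 0.618% of counts in UC7-IFNa libraries 1 to 3, against 1.47%, 1.24% and 1.07% in UC7-PBS libraries 1 to 3, and the part of this share in the results was not tested.

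IFNa raised a set of mostly antiviral genes in the UC7-13D5-bound cells and lowered few. With all libraries, edgeR's quasi-likelihood test at an adjusted p under 0.05 called 52 autosomal genes higher, 0.339% of the 15318 that passed the filter on low counts, and 4 lower, 0.0261%. Without UC7-IFNa library 2 it called 94 higher, 0.599% of 15697, and 13 lower, 0.0828%. All 52 of the genes called higher with that library were called higher without it, but only 1 gene, Klrc2, was lower in both. All 56 genes called with all libraries had UC7-IFNa and UC7-PBS libraries that did not overlap, as also held for 12% of all genes tested. Of the 52 genes, 22 were at least 4-fold higher (a log2 fold change of 2), another 22 lay between log2 values of 1 and 2, and 8 below 1. Without library 2 those numbers were 25, 38 and 31. The count of higher genes fell to 28 without UC7-PBS library 1 and to 29 without UC7-PBS library 3, and 26 of the 52 genes passed whichever of the 13 libraries was left out.

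Most of the higher genes belonged to lists of interferon signalling, antiviral, sensor and MHC class I genes, which together held 1.08% of the genes tested. Of the 52 higher genes, 40 were on these 13 lists, and of the 94 called without UC7-IFNa library 2, 67 were. With all libraries 24.2% of the 165 tested list members were higher, and without library 2 40.4% of 166, against the 0.339% and 0.599% over all genes. Their median log2 fold change was 0.64 with library 2 and 0.76 without it, where all autosomal genes had medians of 0.025 and -0.023. The lists were chosen with earlier results of these data known, so these shares and medians only describe the calls.

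The largest rise among genes above the expression floor was that of Ifit3 (ENSMUSG00000074896, mm39 chromosome 19, 34560931 to 34566131), whose product binds in complexes with other IFIT proteins on foreign RNA. It stood at 79.3, 37.2 and 76.2 CPM in UC7-IFNa libraries 1 to 3, against 2.77, 2.53 and 1.44 CPM in UC7-PBS libraries 1 to 3. The means were 64.2 ± 23.5 CPM in UC7-IFNa (SD, n = 3) and 2.25 ± 0.707 CPM in UC7-PBS (SD, n = 3), and even the lowest UC7-IFNa library, library 2, was far above every UC7-PBS library. The log2 fold change was 4.84 ± 0.36 (standard error (SE), edgeR adjusted p = 7.14e-06), and 5.11 ± 0.30 without library 2 (edgeR adjusted p = 3.70e-08). Its neighbours Ifit3b and Ifit1 rose too, by log2 values of 3.95 ± 0.47 and 2.37 ± 0.38 with all libraries and 4.05 ± 0.47 and 2.73 ± 0.26 without library 2 (edgeR adjusted p at most 0.00639). Ifit3 and Ifit3b are close copies, so reads may be split between them. Ifit1, which recognises RNA caps that lack a methyl mark, lost its call without UC7-PBS library 1 or 3 (edgeR adjusted p between 0.0612 and 0.0871).

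**Figure D1:**
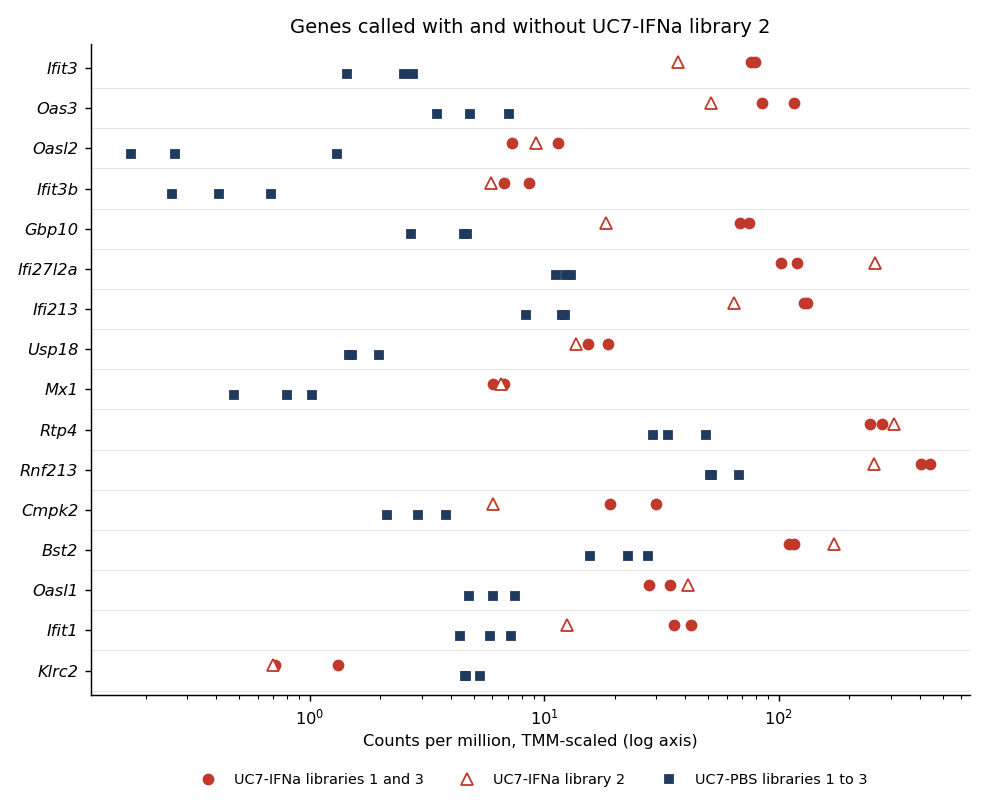
TMM-scaled CPM (log axis) of the 15 named genes with the largest rises called both with and without UC7-IFNa library 2, and of Klrc2, in each UC7-13D5 library. In every gene plotted the 3 UC7-IFNa libraries lie apart from the 3 UC7-PBS libraries, and library 2 (open triangles) is the lowest UC7-IFNa library for Ifit3 at 37.2 CPM but the highest for Ifi27l2a at 257 CPM.

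The rises of restriction factors outside the Ifit cluster were of similar kind. Ifi27l2a, a small interferon-induced membrane protein, had 102, 257 and 119 CPM in UC7-IFNa libraries 1 to 3, against 11.2, 13.0 and 12.4 CPM in UC7-PBS libraries (log2 3.71 ± 0.40, edgeR adjusted p = 0.000131). UC7-IFNa library 2 was the highest there, and without it the log2 fold change was 3.17 ± 0.35 (edgeR adjusted p = 0.000579). Bst2, which encodes tetherin, a protein that holds budding virions at the cell surface, had 116, 172 and 110 CPM in UC7-IFNa libraries, against 15.7, 27.8 and 22.7 CPM in UC7-PBS libraries. It rose by log2 2.58 ± 0.23 with all libraries and 2.35 ± 0.19 without library 2 (edgeR adjusted p = 1.50e-05 and 1.65e-06). Rtp4, an interferon-induced protein that can restrict flaviviruses, had 276, 310 and 246 CPM in UC7-IFNa libraries, against 29.1, 48.8 and 33.6 CPM in UC7-PBS libraries, with log2 values of 2.90 ± 0.23 and, without library 2, 2.81 ± 0.22 (edgeR adjusted p = 7.14e-06 and 1.65e-06). Mx1, an antiviral dynamin-like GTPase that the deposited table marks as a polymorphic pseudogene, had 6.74, 6.56 and 6.06 CPM in UC7-IFNa libraries, against 0.475, 1.02 and 0.796 CPM in UC7-PBS libraries (log2 3.07 ± 0.45, or 3.05 ± 0.46 without library 2, edgeR adjusted p = 0.00296 and 0.00179). For these genes no UC7-IFNa library overlapped a UC7-PBS library. Cmpk2, a mitochondrial nucleotide kinase that lies beside Rsad2, rose by log2 2.65 ± 0.48 (edgeR adjusted p = 0.0197) and by 3.05 ± 0.35 without library 2, which at 6.04 CPM was the lowest of the group. Its call was lost without UC7-IFNa library 1 or 3 or any UC7-PBS library (edgeR adjusted p between 0.057 and 0.147). Xaf1, a proapoptotic interferon target, rose by log2 2.01 ± 0.16 (2.00 ± 0.16 without library 2). Of the 32 tested genes on the direct antiviral list, 14 were higher and none lower, with a median log2 fold change of 1.77, and without library 2 the counts were 18 and none with a median of 1.51.

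The oligoadenylate synthetase family, whose members make the messenger that activates RNase L or, in Oasl1 and Oasl2, resemble those enzymes, moved strongly. Of 9 tested members 5 rose with and without UC7-IFNa library 2, with medians of 2.50 and 2.35. Oas3 (mm39 chromosome 5, 120891163 to 120915726) had 116, 51.5 and 84.6 CPM in UC7-IFNa libraries 1 to 3, against 3.50, 7.07 and 4.82 CPM in UC7-PBS libraries. Library 2 was the lowest UC7-IFNa library and still above all UC7-PBS libraries, and the log2 fold change was 4.04 ± 0.47 with it and 4.28 ± 0.55 without it (edgeR adjusted p = 0.000293 and 0.00526). Oasl2 rose by log2 3.99 ± 0.61 and, without library 2, 3.99 ± 0.65, but its call was lost without UC7-PBS library 3 (edgeR adjusted p = 0.0514). Oasl1 rose by log2 2.50 ± 0.29 (2.35 ± 0.28 without library 2) and Oas1a, which has near-identical copies beside it, by 1.70 ± 0.21 (1.60 ± 0.20 without library 2). Oas2, named here after its values were seen, had 63, 53 and 27 counts in the UC7-IFNa libraries and none in the UC7-PBS libraries. Against a floor of 3 counts per UC7-PBS library it was at least 18.6-fold higher, or at least 15.2-fold without library 2.

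The promoters of the higher genes were searched for an ISRE core, GAAANNGAAA or its reverse complement TTTCNNTTTC, over 250 bases before to 50 bases after the transcription start (RefSeq, GRCm38.p6). It occurred in 32 of the 70 genes called higher in either analysis that had an entry, or 45.7%, against 4.0% of the 10134 tested autosomal genes with an entry. The shares were 43.6% of the 39 genes called with and without library 2 and 48.4% of the 31 called only without it. None of the 12 lower genes with an entry held the core. The STAT motif TTCNNNGAA, which is its own reverse complement, was in 15.7% of the 70 genes, 25.0% of the 12 lower genes (3 genes) and 8.5% of tested genes. A match describes these letters and is not evidence of binding. The 6 genes with the largest rises that hold the core before the start are shown, among named genes, whose log2 CPM averaged 1 or more (Slfn5, which holds 1 core and rose by log2 2.81, lay under that floor), so that the position and orientation of the motif can be read beside the rises above and below. Each line gives the bases just before the start, 5′ to 3′ on the gene's strand, with the ISRE cores in capitals:
Ifit3, chr19:34583369-34583528, plus strand: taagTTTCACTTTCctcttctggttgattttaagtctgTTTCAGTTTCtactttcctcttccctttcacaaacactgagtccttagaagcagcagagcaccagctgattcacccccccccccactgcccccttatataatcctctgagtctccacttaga
Oas3, chr5:120777660-120777819, minus strand: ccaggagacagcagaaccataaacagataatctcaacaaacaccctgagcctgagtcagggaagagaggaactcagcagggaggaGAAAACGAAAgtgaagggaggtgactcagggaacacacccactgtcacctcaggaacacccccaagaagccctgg
Ifit3b, chr19:34607759-34607956, plus strand: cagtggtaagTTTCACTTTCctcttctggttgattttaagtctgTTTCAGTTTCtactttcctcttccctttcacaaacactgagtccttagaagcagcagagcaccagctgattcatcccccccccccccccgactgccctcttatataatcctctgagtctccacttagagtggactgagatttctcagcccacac
Ifi213, chr1:173599273-173599432, minus strand: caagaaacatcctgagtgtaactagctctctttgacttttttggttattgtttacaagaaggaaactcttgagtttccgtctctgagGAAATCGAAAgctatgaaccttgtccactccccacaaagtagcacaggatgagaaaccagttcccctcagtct
Bst2, chr8:71537473-71537632, minus strand: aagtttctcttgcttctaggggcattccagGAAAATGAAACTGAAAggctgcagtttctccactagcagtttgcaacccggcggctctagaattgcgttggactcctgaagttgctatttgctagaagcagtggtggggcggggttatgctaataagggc
Ifit1, chr19:34640729-34640888, plus strand: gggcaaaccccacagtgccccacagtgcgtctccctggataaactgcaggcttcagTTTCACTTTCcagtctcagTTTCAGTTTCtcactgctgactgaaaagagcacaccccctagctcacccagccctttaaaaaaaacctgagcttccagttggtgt
Ifit3, Ifit3b and Ifit1 each hold 2 cores in the reverse orientation. Those of Ifit3 begin 156 and 122 bases before the start, and those of Ifit3b, whose window is nearly the same sequence, begin 188 and 154 bases before its start. The 2 cores of Bst2 overlap by 4 bases, and Oas3 and Ifi213 hold 1 core each. Among the other named genes with the largest rises, the windows of Oasl2, Rnf213, Cmpk2 and Oasl1 had none before the start, and windows of Gbp10, Ifi27l2a, Usp18, Mx1 and Rtp4 were not used here.

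The genes of the signalling pathway itself moved less, and not all of them. Irf7, a transcription factor that amplifies interferon production, had 523, 378 and 510 CPM in UC7-IFNa libraries 1 to 3, against 98.0, 136 and 133 CPM in UC7-PBS libraries. It rose by log2 1.94 ± 0.17 with all libraries and 2.07 ± 0.15 without library 2 (edgeR adjusted p = 1.66e-05 and 3.61e-07). Irf9, the DNA-binding partner in ISGF3, had 192, 186 and 190 CPM in UC7-IFNa libraries, against 73.1, 57.4 and 57.0 CPM in UC7-PBS libraries. The UC7-IFNa libraries lay close together and above every UC7-PBS library. The log2 fold change was 1.60 ± 0.15 with and without library 2 (edgeR adjusted p = 3.84e-05 and 8.13e-06). Stat2 had 119, 48.1 and 92.6 CPM in UC7-IFNa libraries, against 55.2, 42.4 and 52.5 CPM in UC7-PBS libraries, so that library 2 lay among the UC7-PBS libraries. It was called only without that library (log2 1.08 ± 0.17, edgeR adjusted p = 0.0022; with it 0.79 ± 0.25, adjusted p = 0.393). The receptor chains did not pass the test: Ifnar1 had a log2 fold change of 0.30 ± 0.21 (0.54 ± 0.14 without library 2) and Ifnar2 of 0.11 ± 0.13 (0.07 ± 0.12).

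Of the negative regulators, 2 of 12 rose. Usp18, which strips ISG15 from proteins and blocks the receptor, had 18.8, 13.6 and 15.4 CPM in UC7-IFNa libraries, against 1.51, 1.47 and 1.97 CPM in UC7-PBS libraries (log2 3.26 ± 0.32, edgeR adjusted p = 4.01e-05). The groups were far apart, and without library 2 the log2 fold change was 3.35 ± 0.32 (edgeR adjusted p = 1.03e-05). Ifi35 rose by log2 0.96 ± 0.18, or 0.77 ± 0.16 without library 2 (edgeR adjusted p = 0.0275 and 0.0256), but not without UC7-PBS library 1 or 3, IgG-PBS library 3 or IgG-IFNa library 1 (edgeR adjusted p between 0.0535 and 0.214). The median of the list was 0.09, or 0.13 without library 2. Among 7 other interferon regulatory factors Irf7 was the 1 called, and their median was 0.10, or 0.03 without library 2.

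Among sensors of foreign nucleic acid, Zbp1, which binds Z-form nucleic acids and can trigger necroptosis, had 225, 229 and 198 CPM in UC7-IFNa libraries, against 41.8, 55.3 and 52.9 CPM in UC7-PBS libraries. Dhx58, which encodes LGP2, an RNA sensor that works with MDA5, had 96.1, 64.4 and 72.2 CPM against 26.8, 22.1 and 21.3 CPM. Both groups were clear of each other, and the log2 fold changes were 2.12 ± 0.19 and 1.73 ± 0.22, or 2.07 ± 0.18 and 1.84 ± 0.22 without library 2 (edgeR adjusted p at most 0.00077). These were the 2 called of 14 tested sensors, and leaving out library 2 added 5, among them Ddx60 (log2 1.48 ± 0.24, edgeR adjusted p = 0.00331; 1.14 ± 0.33 with library 2), to 7. The median of the list was 0.58, or 0.80 without library 2. In the PYHIN family of DNA-binding proteins, Ifi213 had 128, 64.7 and 132 CPM in UC7-IFNa libraries, against 8.38, 11.9 and 12.2 CPM in UC7-PBS libraries. Library 2 was the lowest UC7-IFNa library and clear of the UC7-PBS libraries, and the rise was log2 3.32 ± 0.26 with it and 3.58 ± 0.18 without it (edgeR adjusted p = 7.14e-06 and 4.89e-09). Ifi206 was called only without it: it had 145, 45.1 and 130 CPM in UC7-IFNa libraries, against 39.4, 41.2 and 33.2 CPM in UC7-PBS libraries. Ifi214 passed narrowly with library 2 (log2 1.55 ± 0.32, edgeR adjusted p = 0.0488), clearly without it (1.89 ± 0.21, edgeR adjusted p = 6.40e-05), and in none of the other 12 omissions (edgeR adjusted p between 0.0628 and 0.323). Of the PYHIN genes 3 of 9 tested were higher with library 2 and 5 of 10 without it, with medians of 1.55 and 2.28.

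The interferon-inducible GTPases and the ISG15 system gained the most calls, 6 each, when UC7-IFNa library 2 was left out. Gbp10, a guanylate-binding protein, had 68.0, 18.4 and 74.7 CPM in UC7-IFNa libraries, against 4.67, 2.7 and 4.55 CPM in UC7-PBS libraries, a log2 fold change of 3.76 ± 0.44, or 4.16 ± 0.27 without library 2 (edgeR adjusted p = 0.000293 and 1.61e-07). Gbp6, which shares sequence with it, rose by log2 1.85 ± 0.33, or 2.22 ± 0.17 without library 2 (edgeR adjusted p = 0.0185 and 1.16e-06). The Gbp6 call was lost without UC7-IFNa library 1 or 3 or any UC7-PBS library (edgeR adjusted p between 0.0767 and 0.149). Gbp9 had 434, 105 and 376 CPM in UC7-IFNa libraries, against 163, 162 and 170 CPM in UC7-PBS libraries, so library 2 lay below all UC7-PBS libraries while both its mates lay above them. Gbp9 and Gvin1 were called only without library 2, with log2 values of 1.29 ± 0.15 and 1.27 ± 0.13 (edgeR adjusted p = 0.000118 and 3.31e-05), and 0.88 ± 0.34 and 0.95 ± 0.26 with it (edgeR adjusted p = 0.558 and 0.28). Of 18 GTPases 3 were higher with that library and 9 without it (medians 0.64 and 0.86). In the ISG15 and TRIM list the counts were 5 and 11 of 18 (medians 1.02 and 1.14).

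Isg15, the ubiquitin-like modifier itself, had 68.5, 103 and 67.1 CPM in UC7-IFNa libraries, against 23.6, 45.4 and 30.8 CPM in UC7-PBS libraries. The groups did not overlap, and it rose by log2 1.26 ± 0.23, or 1.02 ± 0.20 without library 2 (edgeR adjusted p = 0.0192 and 0.0185), but not without UC7-PBS library 1 or 3 (edgeR adjusted p between 0.125 and 0.138). Rnf213, a giant ubiquitin ligase, rose by log2 2.69 ± 0.21 and 2.89 ± 0.17 without library 2 (edgeR adjusted p = 7.14e-06 and 2.56e-08). Uba7, the enzyme that activates ISG15, had 361, 156 and 335 CPM in UC7-IFNa libraries, against 97.3, 126 and 146 CPM in UC7-PBS libraries. Uba7, the ISG15 ligase Herc6 and Trim34a were called only without library 2, with log2 values of 1.49 ± 0.21, 1.36 ± 0.21 and 1.26 ± 0.14, where with it they were 1.21 ± 0.28, 1.06 ± 0.29 and 1.02 ± 0.21. Trim30a, one of several close copies, rose by log2 1.11 ± 0.21, or 1.33 ± 0.15 without library 2, with the call lost in 8 of 13 omissions (edgeR adjusted p between 0.0504 and 0.174). Of the PARP and DTX3L genes, none of 6 was called with library 2 and Parp9 without it (log2 1.21 ± 0.20; 0.87 ± 0.31 with it). Of 7 Schlafen genes 1 was called with it and 2 without it, the second being Slfn8 (log2 1.61 ± 0.19; 1.24 ± 0.33 with it).

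Few antigen presentation genes were called. H2-T23, a nonclassical MHC class I heavy chain (Qa-1) that presents peptides to CD94/NKG2 receptors, had 1559, 1750.3 and 1494 CPM in UC7-IFNa libraries, against 839, 966 and 973 CPM in UC7-PBS libraries. All 3 UC7-IFNa libraries were above all UC7-PBS libraries, and it rose by log2 0.79 ± 0.14, or 0.71 ± 0.13 without library 2 (edgeR adjusted p = 0.0185 and 0.0101). The call was lost without UC7-IFNa library 1 or any UC7-PBS library (edgeR adjusted p between 0.0503 and 0.163). H2-T24 rose by log2 1.96 ± 0.40, or 2.17 ± 0.41 without library 2, at the edge of the threshold (edgeR adjusted p = 0.0499 and 0.0243), and was lost in 11 of 13 omissions (edgeR adjusted p between 0.0512 and 0.379). These were the 2 called of 12 heavy chains, whose median was 0.29, or 0.15 without library 2. None of 13 immunoproteasome and peptide loading genes was called with library 2, with a median of 0.42, and 1, the MHC class I transactivator Nlrc5, was called without it (log2 0.95 ± 0.15, edgeR adjusted p = 0.00206; 0.72 ± 0.21 with library 2; median 0.36).

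**Figure D2:**
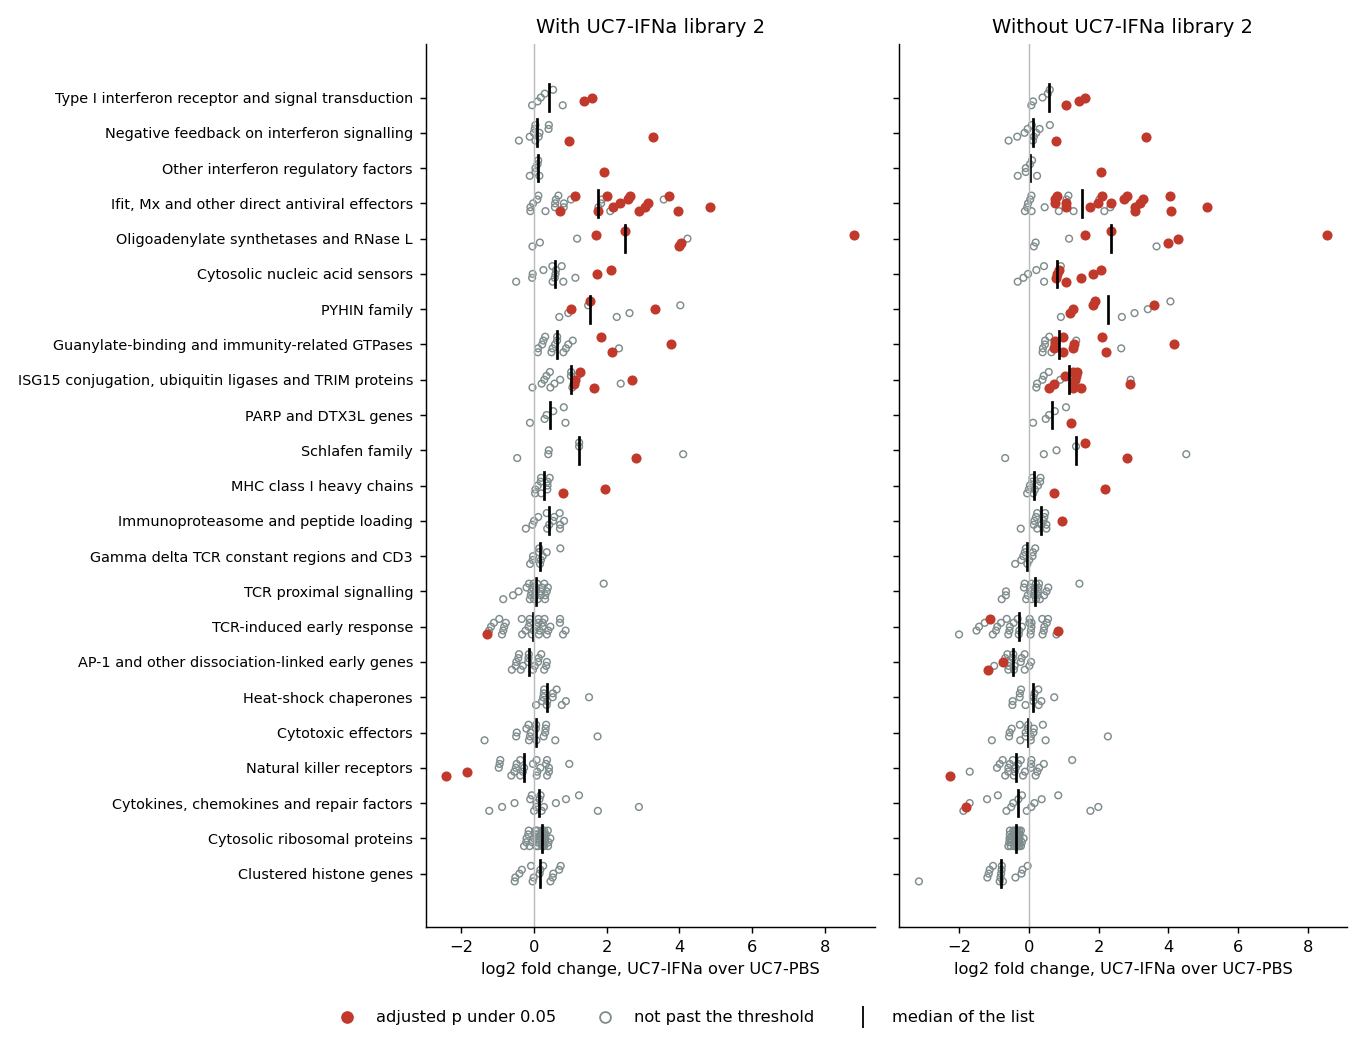
log2 fold change of UC7-IFNa over UC7-PBS for each tested autosomal gene of 23 gene lists (circles), with UC7-IFNa library 2 (left) and without it (right). Filled circles passed an edgeR adjusted p under 0.05 and black bars are list medians. Most called genes sit in the interferon lists at the top. A few, mostly lower, sit in the TCR-induced early response, AP-1, natural killer receptor and cytokine lists. The ribosomal protein and histone medians, 0.22 and 0.16 on the left, are -0.37 and -0.80 on the right.

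Another 42 genes were higher only without UC7-IFNa library 2, and 12 lower. The largest such rises among named genes were Ifi206 (log2 1.85 ± 0.21), Slco3a1, a solute transporter (1.68 ± 0.35), Slfn8, Uba7, Ddx60, Gvin2 (1.44 ± 0.15), Herc6 and Gbp9. With library 2 Ifi206, Slco3a1 and Gvin2 had log2 values of 1.49 ± 0.33, 1.58 ± 0.34 and 1.13 ± 0.26. In library 2, 40 of the 42 genes were below both other UC7-IFNa libraries and 27 were at or under the highest UC7-PBS library. Of the 52 genes called in both, library 2 was below both mates in 29 and above both in 18. The plot of both fold changes shows the called genes near the diagonal, with the genes called only without library 2 displaced towards larger changes without it.

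**Figure D3:**
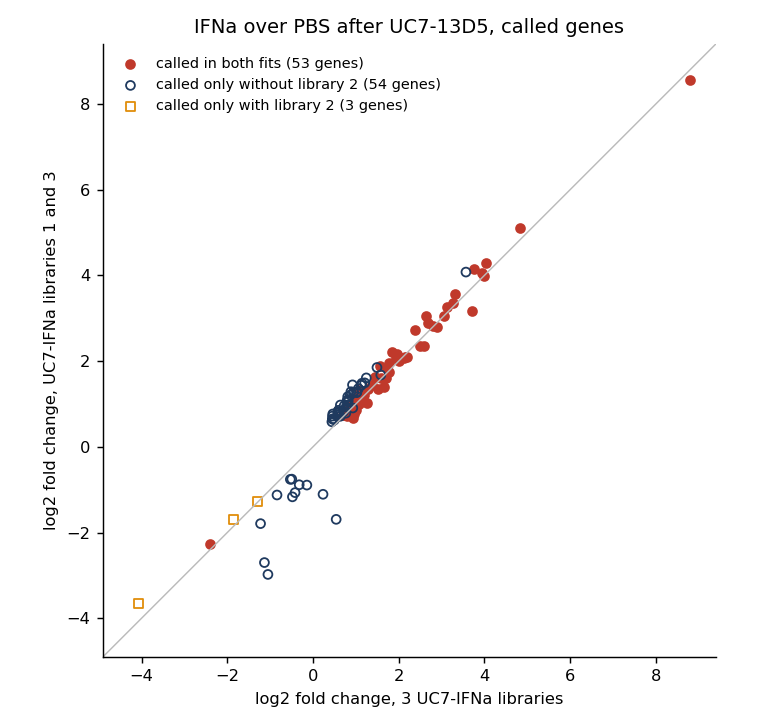
log2 fold change of UC7-IFNa over UC7-PBS from all 3 UC7-IFNa libraries (x axis) and from libraries 1 and 3 (y axis) for the 110 genes called in either. The line marks equal values; 53 genes were called in both, 54 only without library 2 and 3 only with it.

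What set library 2 apart went with the length of the transcript. Genes with under 1 kb of exon (GENCODE vM21) had a median log2 difference of 0.88 between library 2 and the mean of UC7-IFNa libraries 1 and 3, those of 1 to 2 kb 0.36, those of 2 to 4 kb -0.15, those of 4 to 8 kb -0.37 and those over 8 kb -0.36. UC7-IFNa libraries 3 and 1 differed by medians between 0.09 and -0.05 over the same bands. UC7-PBS library 2 leaned the same way as UC7-IFNa library 2, and UC7-PBS library 1 the other way, within 0.25 of 0. Spearman's rho over genes between exon length and the difference from group mates was -0.457 for UC7-IFNa library 2. It was -0.402 for UC7-PBS library 2, 0.315 for UC7-PBS library 1 and 0.114 for UC7-PBS library 3. The trend was thus not particular to UC7-IFNa library 2, where its size was the largest. Over 97 effector and sensor list genes, those under 2 kb (18 genes) stood at medians of 1.24, 1.34 and 1.05 above the UC7-PBS mean in UC7-IFNa libraries 1, 2 and 3, on the log2 scale. Those of 2 to 4 kb (54 genes) stood at 1.09, 0.25 and 0.85, and those of 4 kb and over (25 genes) at 1.02, -0.05 and 0.76. Library 2 was thus level with its mates for list genes under 2 kb and below them for the rest. Genes called higher without library 2 lay lower in it than all genes of the same band. Their medians were 0.21 against 0.36 at 1 to 2 kb, -0.53 against -0.15 at 2 to 4 kb and -0.98 against -0.37 at 4 to 8 kb. They were called from libraries 1 and 3, which by itself favours lower values in library 2. Above that expression floor, which leaves out a few called genes, those called higher in both analyses had a median of 2393 exon bases. Those called higher only without library 2 had a median of 4397, where all genes measured had 2981. The part of exon length in these results was not tested.

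**Figure D4:**
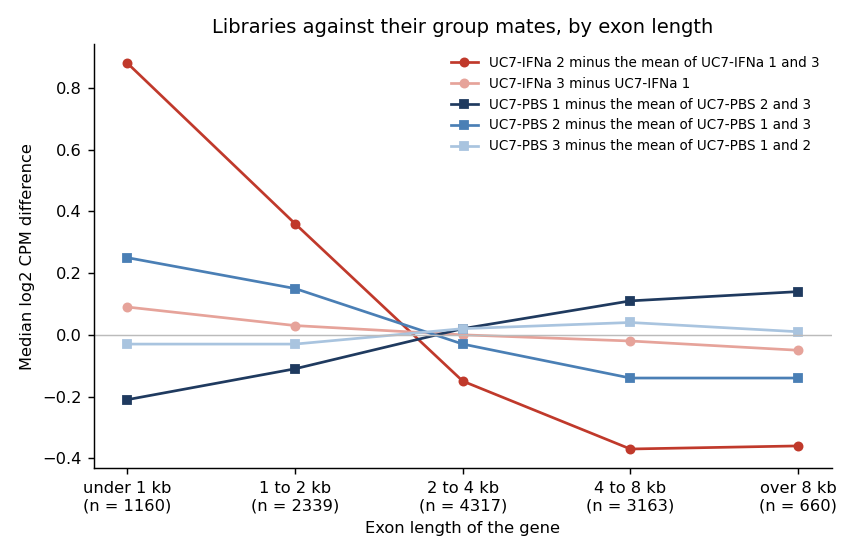
Median log2 CPM difference between a UC7-13D5 library and its group mates (y axis) for autosomal genes grouped by exon length (x axis, with the number of genes). UC7-IFNa library 2 runs from 0.88 for the shortest genes to -0.36 for those over 8 kb, and the other lines stay within 0.25 of 0.

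Few genes fell. Klrc2 (mm39 chromosome 6, 129624459 to 129637652), an activating NKG2 receptor chain that pairs with CD94 and binds the product of H2-T23, had 0.709, 0.697 and 1.32 CPM in UC7-IFNa libraries, against 4.58, 4.66 and 5.35 CPM in UC7-PBS libraries. The groups were well apart, and the log2 fold change was -2.41 ± 0.42, or -2.27 ± 0.45 without library 2 (edgeR adjusted p = 0.0149 and 0.02). The call was lost without UC7-IFNa library 1 or UC7-PBS library 1 or 3 (edgeR adjusted p between 0.0587 and 0.0843). Its inhibitory relative Klrc1 (NKG2A) had 15.9, 11.035 and 16.2 CPM in UC7-IFNa libraries, against 67.8, 64.0 and 23.4 CPM in UC7-PBS libraries, so that UC7-PBS library 3 lay near the UC7-IFNa libraries. Klrc1 was called with library 2 (log2 -1.85 ± 0.37, edgeR adjusted p = 0.0474) and not without it (-1.70 ± 0.46, adjusted p = 0.162), and in 2 of 13 omissions. The 2 genes share sequence, and reads may be split between them. Nfkbid, an atypical nuclear IkB protein, had 55.5, 44.6 and 40.3 CPM in UC7-IFNa libraries, against 94.2, 136 and 114 CPM in UC7-PBS libraries. It was likewise called with library 2 (log2 -1.29 ± 0.25, edgeR adjusted p = 0.0297) and not without it (-1.27 ± 0.28, adjusted p = 0.0629), nor in 5 other omissions. The fourth, the noncoding Mkln1os, had 3, 0 and 0 counts in UC7-IFNa libraries, against 21, 17 and 24 counts in UC7-PBS libraries. Of the natural killer receptor list, 2 of 24 tested genes were thus lower with library 2 and 1 of 25 without it, with medians of -0.28 and -0.38. The count of lower genes was 1 or 2 when UC7-IFNa library 3, any UC7-PBS library, any of IgG-IFNa libraries 1 to 3, or IgG-PBS library 2 or 3 was left out.

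The genes lower only without library 2 included effector and early response genes, many of them short. Exon bases were 482 for H2ac24, 766 for Ccl3, 783 for Gm28437, 1208 for Ifng, 1241 for Nudt14, 1246 for Mt1 and 1456 for Gm44775. The median over the length bands was 2981. Htra3, Zfp36, Fosb and Car8 had 3456, 3470, 3782 and 3853, and the remaining gene had no length. All of these genes lay higher in library 2 than the mean of UC7-IFNa libraries 1 and 3. The part of exon length in these falls was not tested. Ccl3, a chemokine of activated lymphocytes, had 45.2, 94.7 and 32.5 CPM in UC7-IFNa libraries, against 108, 186 and 108 CPM in UC7-PBS libraries (log2 -1.79 ± 0.29 without library 2, edgeR adjusted p = 0.00559; -1.22 ± 0.33 with it). Ifng, which encodes interferon gamma, had 21.4, 34.1 and 20.01 CPM in UC7-IFNa libraries, against 39.9, 60.3 and 34.8 CPM in UC7-PBS libraries (log2 -1.12 ± 0.24 without library 2, edgeR adjusted p = 0.0399; -0.84 ± 0.26 with it). Each UC7-IFNa library was below every UC7-PBS library in both genes. Ccl3 was the 1 gene called of 17 tested cytokines, chemokines and repair factors, whose medians were 0.16 with library 2 and -0.30 without it. Fosb, an AP-1 subunit, Mt1, a metallothionein, Nudt14, a nucleotide-sugar hydrolase, Htra3, a serine protease, and Zfp36, which destabilises cytokine transcripts, were lower by log2 values of -1.17 ± 0.22, -0.89 ± 0.16, -0.89 ± 0.16, -0.76 ± 0.14 and -0.75 ± 0.17 without library 2. With it the values were -0.48 ± 0.33, -0.14 ± 0.32, -0.32 ± 0.27, -0.53 ± 0.17 and -0.50 ± 0.19, and none passed. Mt1 had a positive value without UC7-IFNa library 1 (0.13) or 3 (0.11). The histone gene H2ac24 had 37.6, 222 and 41.9 CPM in UC7-IFNa libraries, against 95.6, 86.4 and 73.6 CPM in UC7-PBS libraries, and its log2 fold change was -1.11 ± 0.23 without library 2 and 0.23 ± 0.52 with it. The lists of ribosomal protein and histone genes changed sign with library 2. Of 38 cytosolic ribosomal protein genes, 31 had a positive log2 fold change with that library (median 0.22) and none without it (median -0.37), and none was called in either. Clustered histone genes had medians of 0.16 and -0.80, again with none of 15 called.

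The receptor and its early targets showed no gene called as higher with all libraries. None of 10 constant region and CD3 genes and none of 25 proximal signalling genes was called in either analysis (medians 0.16 and 0.05 with library 2, -0.07 and 0.17 without it). Cd3e had 914, 1672 and 882 CPM in UC7-IFNa libraries, against 1320, 1165 and 1035 CPM in UC7-PBS libraries, so library 2 was the highest and its mates the lowest (log2 -0.02 ± 0.22, or -0.39 ± 0.16 without library 2, neither past the test). Of 32 TCR-induced early response genes, Nfkbid was the 1 lower gene with library 2, and without it Ifng was lower and Nfkb2 higher (log2 0.82 ± 0.17, edgeR adjusted p = 0.0338; 0.72 ± 0.18 with library 2). The medians were -0.03 and -0.28. Nr4a1, an immediate target of TCR signalling, had 272, 286 and 233 CPM in UC7-IFNa libraries, against 460, 531 and 458 CPM in UC7-PBS libraries. The groups did not overlap, but its log2 fold change of -0.87 ± 0.24, or -0.94 ± 0.26 without library 2, did not pass (edgeR adjusted p = 0.268 and 0.154). Fos and Jun had log2 values of -0.60 ± 0.16 and -0.41 ± 0.28, or -0.62 ± 0.16 and -0.57 ± 0.32, and of 18 AP-1 and dissociation-linked genes none was called with library 2 and 2 were lower without it (medians -0.14 and -0.46).

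Killing and residency genes were not called. Gzmb, the granzyme that cleaves caspases, had 13193, 13290 and 13545 CPM in UC7-IFNa libraries, against 11756, 14083 and 12432 CPM in UC7-PBS libraries, a log2 fold change of 0.06 ± 0.13, or 0.06 ± 0.12 without library 2. Gzma had 26827, 47294 and 26962 CPM in UC7-IFNa libraries, against 30082, 36166 and 29893 CPM in UC7-PBS libraries, so library 2 alone exceeded the UC7-PBS range (log2 0.07 ± 0.21, or -0.26 ± 0.16 without it). Itgae, the integrin chain CD103 that binds epithelial E-cadherin, had 1766, 877 and 1870 CPM in UC7-IFNa libraries, against 1730.1, 1462 and 1806 CPM in UC7-PBS libraries, with library 2 the lowest of the 6 (log2 -0.15 ± 0.23, or 0.12 ± 0.16 without it). Of the remaining pathway lists, covering inhibitory receptors, recirculation, interleukin 7 and 15 signalling, survival, cell cycle, metabolism and stress responses, none had a called member, with medians between -0.15 and 0.37 with library 2 and between -0.19 and 0.25 without it.

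Markers of other cell types were present in every UC7-13D5 library, and none was called. The 16 secretory epithelium markers summed to 558, 1608 and 440.5 CPM in UC7-IFNa libraries 1 to 3, against 2504, 1169 and 1260 CPM in UC7-PBS libraries, with a list median of -0.34, or -0.76 without library 2. Absorptive enterocyte markers summed to 220.1 to 379 CPM in UC7-IFNa libraries and 267 to 323 CPM in UC7-PBS libraries, alpha beta T cell markers to 1733 to 2763 and 1580 to 1878 CPM, and B and plasma cell markers to 539.7 to 1071 and 466 to 531 CPM. The enterocyte list median was -0.14, or -0.67 without library 2. Without that library no tested secretory or enterocyte marker had a positive log2 fold change. Myeloid markers summed to 149 to 185 CPM in UC7-IFNa libraries and 171 to 234 CPM in UC7-PBS libraries. Innate lymphoid, stromal and erythroid markers reached at most 271 CPM in any UC7-13D5 library. UC7-IFNa library 2 had the highest secretory, enterocyte, alpha beta T cell and B cell sums of its group. It also had the highest sum of gamma delta intraepithelial lymphocyte markers, 71530 CPM against 49610 and 50330 CPM in libraries 1 and 3. Its myeloid, innate lymphoid and stromal sums were the lowest of the group. The part of other cell types in the results was not tested. Of the markers listed in the table none was at 0 in every UC7-13D5 library.

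Many of the higher genes lay near another. Of the 52 higher genes, 21 had another higher gene within 100 kb, as did 1.59% of the tested autosomal genes. Without UC7-IFNa library 2 it was 39 of 94, against 2.62% of those tested. With all libraries the groups were Ifit3, Ifit3b and Ifit1 on chromosome 19, Oas2 and Oas3, Oasl1 and Oasl2, and Gbp6 and Gbp10 on chromosome 5, Ifi213 and Ifi214 on chromosome 1, Mx1 and Mx2 on chromosome 16, Rsad2 and Cmpk2 on chromosome 12, Trim30a and Trim30d on chromosome 7, H2-T23 and H2-T24 on chromosome 17, and Isg15 and AW011738 on chromosome 4. Most are families of related copies. The omission of library 2 added, among others, Gbp4 and Gbp9 on chromosome 5, Trim12a, Trim12c and Trim34a on chromosome 7, and Irgm1, Gm12185 and Tgtp2 on chromosome 11.

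The same genes were set beside the mice given IgG, whose libraries are separate from the UC7-13D5 libraries. All 52 genes had a positive log2 fold change of IgG-IFNa over IgG-PBS, and 31 of them were among the 97 autosomal genes called higher there, 0.633% of those tested. Of the 94 called without UC7-IFNa library 2, all were positive after IgG and 62 were among the 294 called higher when that library was kept out of the shared estimate of spread (1.87%). The median over the 52 genes was 1.77 after UC7-13D5 and 1.14 after IgG, and over the 94 it was 1.28 and 0.80. The genes were chosen on the UC7-13D5 values, which by itself favours larger values there. Over the 165 tested list genes, called or not, the medians were 0.64 after UC7-13D5 and 0.44 after IgG, and the difference was positive in 76.4%, against 52.3% of all genes tested. Without library 2 these were 0.76 and 0.45 over 166 genes, with 82.5% against 49.3%. The lists were themselves chosen with results of these data known, so these values are a description too.

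The difference between the 2 responses did not pass the test for any gene. Ifit3 had 49.9, 63.9, 47.7 and 33.3 CPM in IgG-IFNa libraries 1 to 4, against 3.66, 4.25 and 6.19 CPM in IgG-PBS libraries, a log2 fold change of 3.37 ± 0.33. Its antibody by IFNa interaction was 1.47 ± 0.44 on the log2 scale, or 1.74 ± 0.37 without library 2 (edgeR adjusted p = 1 and 0.655). Rtp4 had 193, 222, 210 and 123 CPM in IgG-IFNa libraries, against 51.4, 50.1 and 52.2 CPM in IgG-PBS libraries, and an interaction of 1.03 ± 0.30, or 0.94 ± 0.29 without library 2 (edgeR adjusted p = 1 and 0.912). Over the autosomal genes edgeR called 0 interactions with and without library 2 (0% of those tested), with 486 and 698 genes at an unadjusted p under 0.05, and a missed threshold does not show that the responses were alike. DESeq2 called 3 with all libraries, Slc15a2, St8sia1 and Gm49510, and 13 without library 2. Of the 13, named here after their values were seen, 3 were positive: Ifit3 (1.74 ± 0.37, DESeq2 adjusted p = 0.0148), Gbp6 (1.08 ± 0.25, DESeq2 adjusted p = 0.0274) and Gm49510. The other 10 were negative, among them the Paneth cell genes Defa39 (-6.18 ± 1.34), Defa30 (-4.40 ± 1.07) and Pla2g2a (-3.20 ± 0.76) and the epithelial genes Itgb4, Cldn4 and Tm4sf4 (-4.68 ± 1.06, -2.29 ± 0.53 and -2.89 ± 0.69). Without UC7-PBS library 1 edgeR called 1, Slc15a2. Y-linked genes summed to 237 to 381 CPM in the 6 UC7-13D5 libraries, with Xist at most 1.08 CPM. In IgG-IFNa libraries 1 to 4 they summed to 26.5, 26.9, 255 and 360 CPM, against 32.2, 24.0 and 19.6 CPM in IgG-PBS libraries, and Xist stood at 203, 215, 68.5 and 23.5 CPM, against 329, 258 and 283 CPM. The antibody and the sex-linked transcripts therefore cannot be told apart in this comparison, and within the IgG mice the sex-linked transcripts also differed between IFNa and PBS, whose part in the IgG values was not tested.

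**Figure D5:**
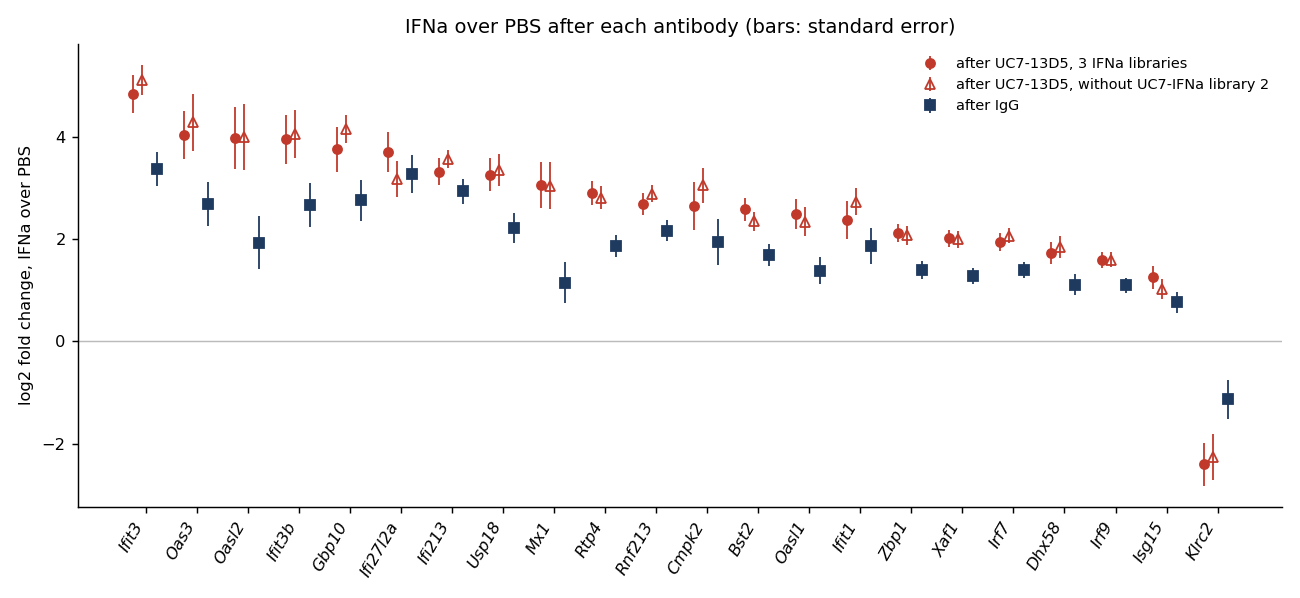
log2 fold change of IFNa over PBS (y axis, with standard errors) for the 15 named genes with the largest rises called both with and without UC7-IFNa library 2, for Klrc2 and for 6 further interferon genes, after UC7-13D5 with all libraries (filled circles), after UC7-13D5 without library 2 (open triangles) and after IgG (squares). Every rise plotted is also positive after IgG, from 3.37 for Ifit3 to 0.76 for Isg15, and no difference between antibodies passed the edgeR test.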

How the data were processed

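RNA of sorted gamma delta intraepithelial lymphocytes was amplified and sequenced with SMART-Seq HT chemistry, per the labels' protocols. Per the submitters' processing notes the build was mm39 and the tools were STAR 2.7.8a, Partek and DESeq2, with no step given for any of them. The authors deposited estimated counts per gene, not scaled between libraries, of which 38% were not whole numbers, so they were rounded here. Their second deposited table, a signal of normalized counts for 11281 genes, served for 1 alternative (limma-trend on log2 of the value + 1).

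Genes were kept by filterByExpr at a minimum count of 10 and scaled by TMM. A single model of all 13 libraries gave each group its own coefficient, so the groups shared 1 estimate of spread, and refitted without UC7-IFNa library 2 (edgeR 4.0.16 quasi-likelihood F test, robust, two-sided, R 4.3.3). P-values were adjusted by Benjamini-Hochberg over all 15835 (16224) genes tested, sex-linked ones included, at a threshold of 0.05, and autosomal genes are reported. The SE is the log2 fold change divided by the square root of F. The procedure was tested on simulated data that held no outlying library and no shift with exon length, so that test does not cover the effect of UC7-IFNa library 2. Lists hold no test, only counts and medians. DESeq2 1.42.0 and limma 3.58.1 gave alternatives. Exon lengths came from GENCODE vM21 by gene identifier, for 99.8% of tested genes, and promoter windows from RefSeq by symbol. Positions in mm39 are those of the deposited table.

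The genes reported and the 33 pathway and 9 marker lists were chosen with earlier results of these data known. Named genes had a mean log2 CPM of at least 1 and a symbol that is no clone name. They were up to 15 rises and 10 falls called with and without UC7-IFNa library 2, up to 8 rises and 8 falls called only without it, up to 3 called genes per list, and a fixed set of interferon, receptor and effector genes. Alternatives were each library left out, the replicate number as a block, other scaling, filters, tests and library weights, and fits to the UC7-13D5 libraries alone. Counts limit precision: a level at 0 counts was bounded with 3 counts per library, which covers counting error only.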

Additional observations from a re-analysis of the deposited data

Results flagged for a closer look

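In 2 of the 65 named genes, 1 library of the 4 IgG-IFNa libraries lay far from the other 3, as chance does in about 1 of 20 groups. Oasl2 stood at 8.53 CPM in IgG-IFNa library 2, where the others had 4.48 to 4.70 CPM. Cd3e stood at 811 CPM in IgG-IFNa library 1, where the others had 975 to 992 CPM. Both libraries enter the results after UC7-13D5 only through the shared filter on low counts, scaling and estimate of spread. The UC7-13D5 groups of 3 libraries are too small for this check.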

How the results depend on the processing

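The count of genes higher with IFNa after UC7-13D5, 52 with all 13 libraries, ran from 28 to 94 when 1 library was left out, and the count of lower genes, 4, from 1 to 13. The higher count was 104 by DESeq2, 272 by voom with library quality weights, 22 with only the 6 UC7-13D5 libraries and 103 with those libraries and UC7-IFNa library 2 left out. With that library left out it was 196 by DESeq2 and 89 by limma-trend on the normalized table, 2 settings added after the data were seen. All 52 genes were among those called by DESeq2 and by voom, and 22 by the fit to 6 libraries. Another scaling, no filter, a minimum count of 30, the normalized table and the removal of Rn18s gave 49 to 54. The lower count was 30 by DESeq2, 130 by voom, 2 by limma-trend, 0 with the 6 libraries (611 genes at an unadjusted p under 0.05), 36 with 5 of them, and, without UC7-IFNa library 2, 126 by DESeq2 and 20 by limma-trend. Interactions numbered 3 by DESeq2, 13 by DESeq2 without UC7-IFNa library 2 and 0 to 1 over the omissions. H2ac24 changed sign: its log2 fold change ran from -1.108, without UC7-IFNa library 2, to 0.622, without UC7-IFNa library 1. Of the other named genes, Mt1 (-0.893 to 0.128), Cd3e (-0.393 to 0.137), Gzma (-0.26 to 0.209) and Itgae (-0.333 to 0.118) also took both signs over the omissions, with Mt1 called only at its lowest value. The cause was not tested.

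Same-numbered UC7-IFNa and UC7-PBS libraries deviated from their group means with correlations of 0.026, 0.198 and 0.089. The UC7-IFNa means include the outlying library 2, so these low values cannot decide whether the replicate numbers pair the libraries. With the replicate block the counts were 32 higher and 2 lower, and 71 and 8 with the block and UC7-IFNa library 2 left out. With 3 libraries a group, and 2 after the omission, small changes could not be detected.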
